A study of Mus musculus with 6 samples.

Results

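The transcripts of the mouse mitochondrial genome were described in hematopoietic progenitors of dnTCF4 and wild-type (WT) mice. Members were taken as every row of the deposited expression table whose symbol begins with mt-, which gave 37 of 53677 genes. They were 13 protein genes, 2 ribosomal RNAs and 22 transfer RNAs. RNA was taken from marrow cells of C57BL/6J mice that the labels call short-term hematopoietic stem cells (ST-HSC), progenitors with limited self-renewal. The sort kept cells with Kit and CD48 on their surface and without CD150 or markers of mature lineages. The 3 dnTCF4 mice expressed a dominant-negative form of the transcription factor TCF4 and carried the genotype label dnTCF4+/+, and the 3 WT mice carried the label dnTCF4-/-. The promoter and the cells that drive the transgene, and the age of the mice, were not given in the sources used here. Each library was treated as 1 mouse, since the design text names 3 animals per genotype, and the tests measure the spread between these libraries.

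Mitochondria keep a small circular genome of their own. Its RNAs are made as long transcripts of the heavy and the light strand, and the transfer RNAs that lie between the other genes are cut out to release the messenger and ribosomal RNAs. The proteins are subunits of the respiratory chain and of ATP synthase, while every protein that copies, transcribes, processes and translates this genome is encoded in the nucleus. Hematopoietic stem cells are known to draw largely on glycolysis, and respiration gains weight as they differentiate.

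Values were RPKM, the reads of a gene divided by its length and by the counted reads of its library, which adjusts for gene length. In transfer RNA genes, of 59 to 75 bases, a few reads make a large RPKM. Their ratios to longer genes are therefore read only between genotypes, and their RPKM weighs more in summed RPKM than their reads do in shares of reads. The libraries held between 57384595 and 110895167 counted reads, with the highest depth in dnTCF4 replicate 2. For all 37 members the RPKM values corresponded to whole reads in each of the 6 libraries, within 0.02 of a read at counts of up to 436113. Of the sort markers, Cd48 averaged 1195 ± 209 RPKM in dnTCF4 cells and 900.9 ± 90.6 in WT cells. Kit averaged 69.1 ± 31.2 RPKM in dnTCF4 cells and 64.2 ± 18.3 in WT cells, and Slamf1, which encodes CD150, averaged 0.969 ± 0.218 in dnTCF4 cells and 0.931 ± 0.191 in WT cells (SD, n = 3 each). Genes of other cell types were also read. Immunoglobulin genes, products of B and plasma cells, took 0.732% to 1.55% of the reads of dnTCF4 libraries and 7.22% to 14.8% of those of WT libraries, so shares are also given without them. Libraries were scaled to their total, so more RNA of one kind lowers the RPKM of all others.

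The mean level of mitochondrial transcripts was higher in dnTCF4 cells. Members took 1.52%, 1.51% and 2.57% of the counted reads in dnTCF4 replicates 1, 2 and 3, against 1.02%, 1.04% and 1.47% in WT replicates 1, 2 and 3. The 3 dnTCF4 libraries thus lay above the 3 WT libraries, narrowly so for WT replicate 3. The mean share was 1.87 ± 0.609% in dnTCF4 cells and 1.18 ± 0.259% in WT cells (SD, n = 3 each), a ratio of 1.59. An exact two-sided permutation test gave p = 0.1, the smallest p that 3 against 3 libraries can give. Members took 3.82 ± 1.00% of the summed RPKM in dnTCF4 cells and 1.97 ± 0.568% in WT cells, also without overlap (exact permutation p = 0.1, n = 3 each). When the immunoglobulin genes were left out of the total, the share of reads was 1.54%, 1.53% and 2.61% in dnTCF4 replicates 1, 2 and 3 and 1.19%, 1.12% and 1.59% in WT replicates 1, 2 and 3. WT replicate 3 then stood above dnTCF4 replicates 1 and 2, and the exact two-sided permutation p was 0.3. The share of summed RPKM without these genes was 3.28%, 3.54% and 5.28% in dnTCF4 replicates 1, 2 and 3 and 2.65%, 2.52% and 3.49% in WT replicates 1, 2 and 3. WT replicate 3 stood above dnTCF4 replicate 1, and the means of 4.03 ± 1.09% in dnTCF4 cells and 2.88 ± 0.524% in WT cells gave an exact permutation p = 0.2 (SD, n = 3 each). Between libraries of the same replicate number, the dnTCF4 library had the higher share in 3 of 3 pairs by each of these 4 measures, and an exact paired permutation test gave p = 0.25, the smallest that 3 pairs allow. In bulk samples, fewer cells of a type and less RNA per cell cannot be told apart.

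The 3 classes of RNA held overlapping parts of the mitochondrial reads in both genotypes. Protein genes took 77.1%, 77.5% and 78.8% of them in dnTCF4 replicates 1, 2 and 3 and 84.5%, 77.1% and 77.2% in WT replicates 1, 2 and 3. Ribosomal RNAs took 22.3%, 21.9% and 20.7% in the dnTCF4 libraries and 15.1%, 22.3% and 22.2% in the WT libraries, in the same order. WT replicate 1 stood apart, with the lowest ribosomal and the highest protein part. Transfer RNAs took 0.481% to 0.593% in dnTCF4 libraries and 0.358% to 0.566% in WT libraries, and the groups overlapped.

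Levels along the genome fell into 2 ranges. mt-Cytb, mt-Nd1, mt-Co1, mt-Nd4, mt-Nd2, mt-Nd6 and mt-Nd5, in falling order of the deposited values, averaged 445.2 to 3351 RPKM over the 6 libraries. The 6 protein genes mt-Co2, mt-Atp8, mt-Atp6, mt-Co3, mt-Nd3 and mt-Nd4l averaged 0.134 to 4.33 RPKM. These 6 follow one another along the genome. Between mt-Co1 and mt-Co2 lie the transfer RNA genes mt-Ts1 and mt-Td, and among the 6 stand mt-Tk, mt-Tg and mt-Tr. None of these 5 transfer RNAs had more than 4 reads in any library.

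The genes of low level lie in a stretch that is spanned by annotated copies in the nuclear genome. In the GENCODE M21 annotation of GRCm38, 7 pseudogene transcripts on the minus strand of chromosome 1, between positions 24611535 and 24616197, matched mitochondrial positions 6390 to 11042 with the same order. The spacing between the copies differed by 1 base from that of the mitochondrial genes. Only annotated transcripts were searched. No copy was found for mt-Atp8 or for the 5 transfer RNAs named above, so their presence on chromosome 1 was not shown. Gm28661, Gm10925, Gm28437, Gm10222 and Gm28439 had 100% identity to mt-Co2, mt-Atp6, mt-Co3, mt-Nd4l and the first 876 bases of mt-Nd4 over the bases aligned. Gm28438 was 99.7% identical to mt-Nd3 and Gm29216 was 99.8% identical to the last 483 bases of mt-Co1, each with 1 substitution. The members wholly inside positions 6390 to 11042 were these 11, the 6 protein genes and the 5 transfer RNAs, and together they took 0.0512% to 0.0661% of mitochondrial reads in dnTCF4 libraries and 0.0378% to 0.0623% in WT libraries. How reads that match several places were counted is not given in the sources used here, and its part in these low values was not tested. The mitochondrial shares and class parts given above include these genes only with the few reads counted for them. The RPKM of these genes is therefore not read as their abundance, and levels are compared only among genes outside the stretch. Of those, mt-Nd2 and mt-Nd5 have copies of part of their length on chromosomes 2 and 13, at 96.7% and 95.2% identity.

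The start of mt-Nd3 and of its nuclear copy is shown because the copy carried far more reads than the mitochondrial gene. The lines give 33 bases at chrM:9459-9491 on the plus strand and at chr1:24613087-24613119 on the minus strand, with the base that differs in capitals.
mt-Nd3: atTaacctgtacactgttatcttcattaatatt
Gm28438: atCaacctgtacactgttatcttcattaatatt
The substitution is T3C, counted from 1 at the first base of mt-Nd3, which is mitochondrial position 9461. It was the 1 difference over 345 aligned bases. mt-Nd3, a subunit of complex I, had 7, 4 and 11 reads in dnTCF4 replicates 1, 2 and 3 and 2, 1 and 6 reads in WT replicates 1, 2 and 3. Gm28438 had 995, 1960 and 2522 reads in dnTCF4 replicates 1, 2 and 3 and 733, 349 and 777 in WT replicates 1, 2 and 3. The copy thus held more reads than the gene in each of the 6 libraries, and its RPKM was 131 to 494 times that of mt-Nd3.

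Gm28438 had 45.7, 51.2 and 127.4 RPKM in dnTCF4 replicates 1, 2 and 3, against 33.5, 16.4 and 33.3 RPKM in WT replicates 1, 2 and 3. All dnTCF4 libraries stood above all WT libraries, but the log2 difference of 1.31 (SE 0.45) did not pass the test (limma, Benjamini-Hochberg adjusted p = 0.417). The other 6 copies on chromosome 1 had 0.0905 to 10.6 RPKM. Among them Gm28661, Gm10925 and Gm28437 averaged 2.39, 5.65 and 4.74 RPKM over the 6 libraries, close to the 2.63, 4.33 and 4.15 RPKM of mt-Co2, mt-Atp6 and mt-Co3. With near-identical sequence, reads of a copy and of its mitochondrial gene cannot be told apart in this table.

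**Figure D1:**
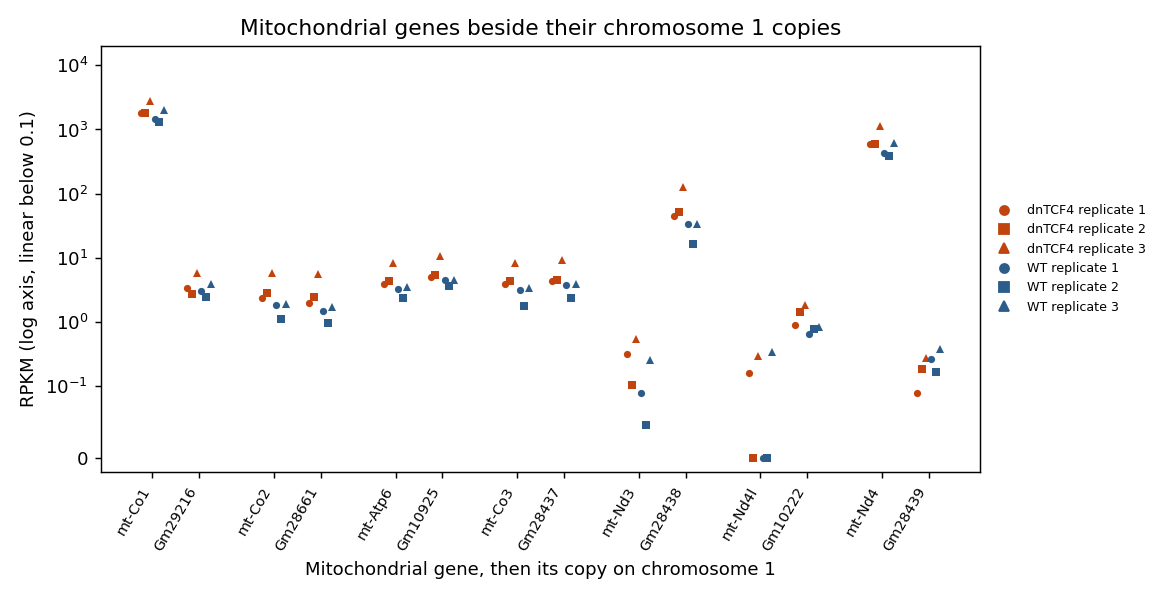
RPKM of 7 mitochondrial genes, each followed by its chromosome 1 copy, with 1 point per library, dnTCF4 left of WT, on a log axis that is linear below 0.1 RPKM. Gm28438 lies between 16.4 and 127.4 RPKM, far above mt-Nd3, while the copies of mt-Co2, mt-Atp6 and mt-Co3 have levels near those of the genes.

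mt-Co1 and mt-Nd4 cross the edges of the stretch. The copy covers 31.3% of mt-Co1 and 63.6% of mt-Nd4. The line shown gives the downstream edge of the annotated copy, 60 bases at chrM:11013-11072 on the plus strand. It is shown because reads of mt-Nd4 that can be told from this copy have to reach the bases in capitals, outside Gm28439.
mt-Nd4: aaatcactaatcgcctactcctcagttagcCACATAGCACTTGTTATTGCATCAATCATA
If all of its reads are put on the 502 bases outside the copy, mt-Nd4 had 2131 ± 856 RPKM in dnTCF4 cells and 1307 ± 322 in WT cells, where the table gives 776.3 ± 311.8 RPKM in dnTCF4 cells and 476.0 ± 117.4 in WT cells. The same sum for mt-Co1 gave 3090 ± 849 in dnTCF4 cells and 2336 ± 547 in WT cells (SD, n = 3 each). The ratio between the genotypes is not altered by it, but the place of both genes in the order of levels is.

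The protein genes outside the stretch all had higher means in dnTCF4 cells, and none passed the test. mt-Cytb, the mitochondrial subunit of complex III, lies at positions 14145 to 15288 of the plus strand. It had 3237, 3438 and 5822 RPKM in dnTCF4 replicates 1, 2 and 3, against 2421, 2223 and 2963 in WT replicates 1, 2 and 3. Every dnTCF4 library was above every WT library, and dnTCF4 replicate 3 was far above the rest. The log2 difference was 0.67 (95% interval 0.07 to 1.28) with a limma adjusted p of 0.483.

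Complex I, which takes electrons from NADH, has 7 of its subunits encoded here. mt-Nd1 (positions 2751 to 3707) had 2818, 2548 and 4979 RPKM in dnTCF4 replicates 1, 2 and 3, against 1866, 1862 and 2385 in WT replicates 1, 2 and 3. Its groups did not overlap, and the log2 difference was 0.70 (95% interval 0.05 to 1.35, limma adjusted p = 0.491). mt-Nd2 had 632.2, 621.0 and 1030 RPKM in the dnTCF4 libraries and 401.1, 424.5 and 618.4 in the WT libraries, in replicate order. The highest WT value of mt-Nd2 lay just under the lowest dnTCF4 value. mt-Nd4 had 598.2, 594.4 and 1136 RPKM in dnTCF4 replicates 1, 2 and 3 and 427.8, 390.4 and 609.8 in WT replicates 1, 2 and 3, so that WT replicate 3 overlapped the dnTCF4 group. mt-Nd5 had 413.1, 475.0 and 773.1 RPKM in dnTCF4 replicates 1, 2 and 3, against 308.6, 263.3 and 438.0 in WT replicates 1, 2 and 3. It overlapped through WT replicate 3 as well. These 3 genes had log2 differences of 0.65 to 0.70, and limma gave adjusted p-values of 0.516 for mt-Nd2, 0.563 for mt-Nd4 and 0.520 for mt-Nd5.

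mt-Nd6 is the protein gene on the minus strand, at positions 13552 to 14070, and its messenger is known from human cells to lack the poly(A) tail that the others carry. It had 560.1, 524.9 and 885.5 RPKM in dnTCF4 replicates 1, 2 and 3, against 365.1, 323.2 and 545.2 in WT replicates 1, 2 and 3. WT replicate 3 stood above dnTCF4 replicate 2 only, and the limma adjusted p was 0.516. Its level relative to the sum of the plus-strand protein genes was 0.0559 ± 0.00279 in dnTCF4 cells and 0.0543 ± 0.00533 in WT cells (exact permutation p = 0.7, n = 3 each). The library chemistry does not mark the strand, so reads counted for mt-Nd6 can include RNA of the opposite strand, and mt-Nd5 shares its last 14 positions with it.

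mt-Co1, the catalytic subunit of cytochrome c oxidase (complex IV), showed the smallest difference among the protein genes outside or partly outside the stretch. It had 1790, 1784 and 2798 RPKM in dnTCF4 replicates 1, 2 and 3, against 1467, 1318 and 2031 in WT replicates 1, 2 and 3. WT replicate 3 lay above dnTCF4 replicates 1 and 2, and the log2 difference was 0.40 (95% interval -0.20 to 0.99, limma adjusted p = 0.660). As a part of the mitochondrial reads, mt-Co1 took 18.2%, 18.2% and 16.8% in dnTCF4 replicates 1, 2 and 3 and 22.3%, 19.7% and 21.3% in WT replicates 1, 2 and 3. Here the dnTCF4 libraries all lay below the WT libraries. The ratio of mt-Co1 to mt-Nd1 was 0.632 ± 0.0691 in dnTCF4 cells and 0.782 ± 0.0722 in WT cells (exact permutation p = 0.1, the smallest possible, n = 3 each), a pair of genes chosen after their values were seen. The other protein genes outside the stretch kept overlapping parts of the mitochondrial reads, such as 25.4 ± 0.887% in dnTCF4 cells and 24.9 ± 2.16% in WT cells for mt-Cytb.

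Among the 5 protein genes wholly outside the stretch, the order of mean levels over the 6 libraries was mt-Cytb at 3351, mt-Nd1 at 2743, mt-Nd2 at 621.2, mt-Nd6 at 534.0 and mt-Nd5 at 445.2 RPKM. Each of the 6 libraries had this order. Across libraries, however, the ranges of mt-Cytb and mt-Nd1 overlapped, as did those of mt-Nd2, mt-Nd6 and mt-Nd5.

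**Figure D2:**
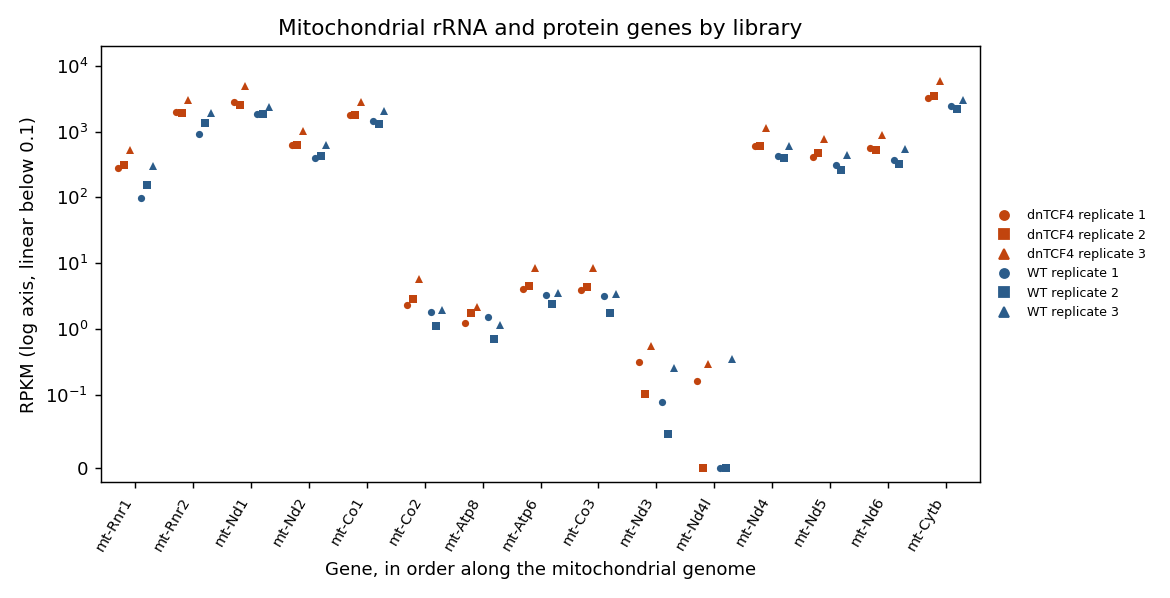
RPKM of the protein genes and ribosomal RNAs in genome order, with 1 point per library and dnTCF4 left of WT, on a log axis that is linear below 0.1 RPKM. The 6 genes from mt-Co2 to mt-Nd4l stay at or under 8.42 RPKM, and the others lie between 98.7 and 5822 RPKM.

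Inside the copied stretch, the 4 protein genes that passed the filter were mt-Co2 and mt-Co3, subunits of complex IV, and mt-Atp8 and mt-Atp6, subunits of ATP synthase. mt-Co2 had 2.34, 2.86 and 5.73 RPKM in dnTCF4 replicates 1, 2 and 3 and 1.82, 1.11 and 1.94 in WT replicates 1, 2 and 3. Its groups did not overlap, and with a log2 difference of 0.77 it had the lowest limma adjusted p of the protein genes, 0.476. mt-Atp6 had 3.98, 4.42 and 8.42 RPKM in dnTCF4 replicates 1, 2 and 3, against 3.26, 2.38 and 3.49 in WT replicates 1, 2 and 3. mt-Co3 had 3.86, 4.31 and 8.38 RPKM in dnTCF4 replicates 1, 2 and 3, against 3.19, 1.76 and 3.37 in WT replicates 1, 2 and 3. Both were separated, with dnTCF4 replicate 3 far above the rest. mt-Atp8, which shares 43 positions with mt-Atp6, had 1.24, 1.77 and 2.14 RPKM in dnTCF4 replicates 1, 2 and 3, against 1.54, 0.714 and 1.16 in WT replicates 1, 2 and 3, and its groups overlapped. In limma these 3 genes had log2 differences of 0.66 for mt-Atp6, 0.75 for mt-Co3 and 0.35 for mt-Atp8, with adjusted p-values of 0.516, 0.508 and 0.638. mt-Nd3 and mt-Nd4l, both subunits of complex I, were not tested, and mt-Nd4l had 3, 0 and 5 reads in dnTCF4 replicates 1, 2 and 3 and 0, 0 and 7 in WT replicates 1, 2 and 3.

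Both ribosomal RNAs had higher means in dnTCF4 cells. mt-Rnr1, the RNA of the small ribosomal subunit at positions 70 to 1024, had 279.2, 312.9 and 520.0 RPKM in dnTCF4 replicates 1, 2 and 3, against 98.7, 156.0 and 298.1 in WT replicates 1, 2 and 3. WT replicate 3 was above dnTCF4 replicate 1. mt-Rnr2, the RNA of the large subunit at positions 1094 to 2675, had 1974, 1904 and 3048 RPKM in dnTCF4 replicates 1, 2 and 3, against 911.1, 1369 and 1887 in WT replicates 1, 2 and 3. The lowest dnTCF4 value of mt-Rnr2 was only slightly above the highest WT value. Their log2 differences were 1.10 (limma adjusted p = 0.487) and 0.76 (limma adjusted p = 0.507). The ratio of summed ribosomal RNA to summed protein RPKM was 0.224, 0.222 and 0.204 in dnTCF4 replicates 1, 2 and 3 and 0.139, 0.224 and 0.228 in WT replicates 1, 2 and 3 (exact permutation p = 0.9). Only WT replicate 1 lay away from the others.

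Transfer RNA genes are short and their mature products are not a target of poly(A) selection, so counted reads can also be parts of longer precursors or of neighbouring transcripts. Of 22, 16 averaged at least 1 RPKM. The sequences of the 3 with the highest levels are shown whole, 5′ to 3′ on their own strand, with the anticodon in capitals, from GENCODE M21 on GRCm38. mt-Tm (chrM:3845-3913, plus) reads methionine codons, mt-Tq (chrM:3772-3842, minus) glutamine codons and mt-Tp (chrM:15356-15422, minus) proline codons.
mt-Tm: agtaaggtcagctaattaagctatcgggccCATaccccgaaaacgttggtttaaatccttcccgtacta
mt-Tq: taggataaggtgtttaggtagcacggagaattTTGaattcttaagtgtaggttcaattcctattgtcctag
mt-Tp: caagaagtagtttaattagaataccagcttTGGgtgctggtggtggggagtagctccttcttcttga
The first and the second stand side by side, upstream of mt-Nd2, on opposite strands.

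mt-Tm had 199.5, 313.5 and 443.7 RPKM in dnTCF4 replicates 1, 2 and 3, against 45.9, 73.7 and 178.5 in WT replicates 1, 2 and 3. mt-Tq had 79.1, 131.3 and 172.3 RPKM in dnTCF4 replicates 1, 2 and 3, against 20.6, 39.4 and 70.9 in WT replicates 1, 2 and 3. Neither pair of groups overlapped, with WT replicate 3 the highest WT library for both. The log2 differences of 1.83 for mt-Tm (95% interval 0.63 to 3.03) and 1.62 for mt-Tq were the highest of the members, with limma adjusted p-values of 0.305 and 0.315. Their neighbour mt-Nd2 differed less, so the ratio of mt-Tm to mt-Nd2 was 0.417 ± 0.0954 in dnTCF4 cells and 0.192 ± 0.0886 in WT cells. That of mt-Tq to mt-Nd2 was 0.168 ± 0.0432 in dnTCF4 cells and 0.0864 ± 0.0321 in WT cells. In both ratios, which were chosen after the values were seen, the dnTCF4 libraries lay above the WT libraries (exact permutation p = 0.1, the smallest possible, n = 3 each).

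mt-Tp, the most abundant transfer RNA row, differed less. It had 681.4, 516.8 and 759.0 RPKM in dnTCF4 replicates 1, 2 and 3, against 349.3, 491.7 and 632.2 in WT replicates 1, 2 and 3. WT replicate 3 exceeded dnTCF4 replicate 2, and the log2 difference was 0.43 (limma adjusted p = 0.646). mt-Tc, for cysteine, had 71.6, 106.6 and 126.7 RPKM in dnTCF4 replicates 1, 2 and 3, against 30.5, 38.5 and 71.8 in WT replicates 1, 2 and 3. mt-Tl1, a transfer RNA for leucine, had 75.9, 68.1 and 123.8 RPKM in dnTCF4 replicates 1, 2 and 3, against 27.7, 42.1 and 93.7 in WT replicates 1, 2 and 3. In both, WT replicate 3 alone reached into the dnTCF4 range.

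mt-Tv, for valine, lies between the ribosomal RNA genes. It had 21, 41 and 32 reads in dnTCF4 replicates 1, 2 and 3 and 6, 5 and 14 reads in WT replicates 1, 2 and 3. In RPKM these were 4.83, 5.36 and 8.08 in the dnTCF4 libraries and 1.37, 1.17 and 3.00 in the WT libraries, with no overlap. Its log2 difference was 1.34 (95% interval 0.66 to 2.02), and its limma adjusted p of 0.169 was the lowest of the members. With the replicate number as a block, the adjusted p was 0.0483 in limma and mt-Tv was the 1 member called, where 0.0618% of all genes tested were called higher.

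The other separated transfer RNAs were mt-Tf, mt-Ts2 and mt-Tt. mt-Tt, for threonine, had 22.5, 24.0 and 28.4 RPKM in dnTCF4 replicates 1, 2 and 3, against 11.5, 16.9 and 18.1 in WT replicates 1, 2 and 3. mt-Tf, for phenylalanine, had 18, 35 and 14 reads in dnTCF4 replicates 1, 2 and 3 and 4, 5 and 14 in WT replicates 1, 2 and 3, and scaled to depth it was separated at 3.59 to 4.64 RPKM in dnTCF4 cells and 0.926 to 3.04 in WT cells. mt-Ts2, for serine, had 10, 49 and 12 reads in dnTCF4 replicates 1, 2 and 3 and 5, 2 and 8 in WT replicates 1, 2 and 3. The last of these stood on few reads, most of them in dnTCF4 replicate 2. Their log2 differences were 0.67 for mt-Tt, 0.99 for mt-Tf and 1.24 for mt-Ts2, with limma adjusted p-values of 0.390, 0.317 and 0.321.

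The remaining 7 overlapped between the genotypes. mt-Te, for glutamate, had 12.6, 17.6 and 21.7 RPKM in dnTCF4 replicates 1, 2 and 3, against 2.51, 4.69 and 13.3 in WT replicates 1, 2 and 3. WT replicate 3 was again the WT library that reached the dnTCF4 values, and the log2 difference of 1.45 did not pass (limma adjusted p = 0.417). mt-Ta, for alanine, had 31.5, 33.2 and 35.9 RPKM in dnTCF4 replicates 1, 2 and 3, against 10.96, 21.8 and 33.6 in WT replicates 1, 2 and 3. mt-Tn, for asparagine, had 47.1, 46.4 and 40.0 RPKM in dnTCF4 replicates 1, 2 and 3, against 17.1, 21.0 and 49.7 in WT replicates 1, 2 and 3, where WT replicate 3 was the highest of all. mt-Ty, for tyrosine, had 7, 31 and 6 reads in dnTCF4 replicates 1, 2 and 3 and 9, 4 and 8 in WT replicates 1, 2 and 3.

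For mt-Ti, mt-Tw and mt-Tl2 the direction itself depended on the libraries used. mt-Ti, for isoleucine, had 14.5, 12.5 and 19.4 RPKM in dnTCF4 replicates 1, 2 and 3, against 5.93, 11.03 and 20.98 in WT replicates 1, 2 and 3. mt-Tw, for tryptophan, had 15.1, 12.9 and 14.8 RPKM in dnTCF4 replicates 1, 2 and 3, against 7.29, 12.3 and 19.6 in WT replicates 1, 2 and 3. In both, WT replicate 3 was the highest library and WT replicate 1 the lowest. mt-Tl2, for leucine, had 1, 45 and 4 reads in dnTCF4 replicates 1, 2 and 3 and 0, 4 and 22 in WT replicates 1, 2 and 3. The log2 differences were 0.41 for mt-Ti, 0.21 for mt-Tw and 0.20 for mt-Tl2, and without WT replicate 1 they were -0.00121, -0.12 and -0.37. For mt-Tl2 the difference was -0.50 without dnTCF4 replicate 2.

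Among the low rows, mt-Td, mt-Tk and mt-Tg had 0 reads in each library. With 3 reads as the limit that a count of 0 allows, levels of up to 0.386 to 0.804 RPKM, depending on library and gene, were not detectable at this depth, for counting error only. mt-Ts1 had 0 to 4 reads and mt-Tr 0 to 2 reads in a library. mt-Th, outside the copied stretch, had 5, 8 and 1 reads in dnTCF4 replicates 1, 2 and 3 and 3, 0 and 7 in WT replicates 1, 2 and 3.

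**Figure D3:**
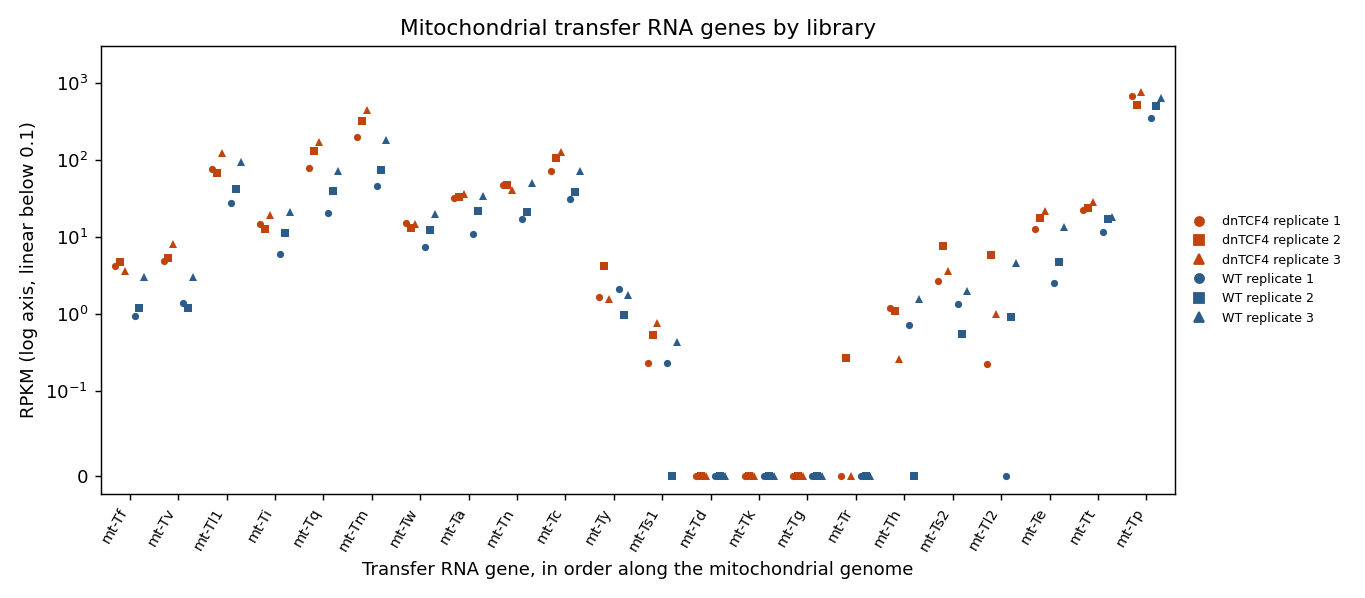
RPKM of the 22 transfer RNA genes in genome order, with 1 point per library, dnTCF4 left of WT, on a log axis that is linear below 0.1 RPKM. The groups of mt-Tm and mt-Tq are separated, mt-Tp overlaps through WT replicate 3, and mt-Td, mt-Tk and mt-Tg lie at 0.

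Over the whole table, 29 of the 37 members averaged at least 1 RPKM and were tested. All 29 had a higher mean log2 level in dnTCF4 cells (26 without WT replicate 1, and 28 without dnTCF4 replicate 2 or with library weights), and 0 were called at an adjusted p under 0.05 in limma, where 0.0441% of the 11326 genes tested were called higher and 0.300% in either direction. The voom variant of limma, on the recovered reads, also called 0. At an unadjusted p under 0.05 limma had 17 members higher and 0 lower, beside 7.52% of all genes higher. Among the alternatives this number was lowest at 6 without WT replicate 1, beside 5.22% of all genes, and highest at 22 without WT replicate 3, beside 6.17% of all genes. It was 7 without dnTCF4 replicate 3 (5.89% of all genes), 8 without WT replicate 2 (3.15%), 9 after the libraries were rescaled by median ratios (3.11%) and 11 with the immunoglobulin genes left out (4.22%). It was 9 with no filter on low values (5.87%), and 8 of 20 members tested at a mean of at least 5 RPKM (7.91%). It was 18 after quantile normalization (6.05%), 20 with replicates 1 and 2 only (5.70%) and 21 with the replicate block (12.1%). In 13 of the 29 members the dnTCF4 libraries were all above the WT libraries, which held for 15.4% of all genes tested. The 13 were 6 of 11 protein genes, 1 of 2 ribosomal RNAs and 6 of 16 transfer RNAs. Of the 4 protein genes tested inside the copied stretch, 3 were separated and 3 had an unadjusted p under 0.05 in limma. Of the 7 outside or partly outside it, 3 were separated and 4 had such a p, beside 15.4% and 7.52% of all genes. Between libraries of the same number, 23 of the 29 members were higher in dnTCF4 cells in all 3 pairs, as were 37.3% of all genes tested. The members share libraries and transcripts and are not independent of one another.

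The median log2 difference was 0.70 over the 29 members tested, 0.67 over the protein genes, 0.93 over the ribosomal RNAs and 0.79 over the transfer RNAs. Over all genes tested the median was 0.14, and 68.5% of these genes had a higher mean in dnTCF4 cells. Scaling by median ratios moved the median of all genes to -0.04 and that of the members to 0.48, with 29 of 29 still higher in dnTCF4 cells. After quantile normalization, mt-Nd1 (log2 difference 1.42) and mt-Cytb (1.52) were called in limma with adjusted p-values of 0.0435 and 0.0304, beside 0.0795% of all genes called higher. Median ratio scaling together with the replicate block called mt-Tv and mt-Tm, with adjusted p-values of 0.0248 and 0.0439 in limma, beside 0.168% of all genes.

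**Figure D4:**
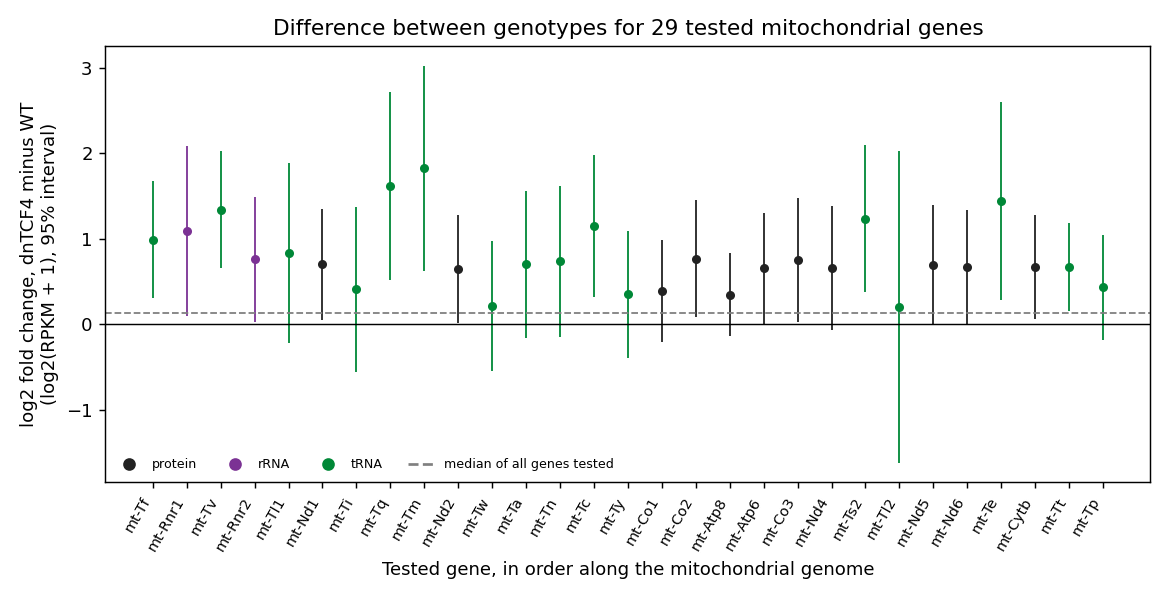
Log2 difference (dnTCF4 minus WT) of each tested member with its 95% interval, in genome order and marked by class, beside the median of all genes tested at 0.14. All 29 lie above 0, and mt-Tm, mt-Tq, mt-Te and mt-Tv have the highest values.

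The libraries of each genotype also differed among themselves. dnTCF4 replicate 3 was the highest library for 22 of the 29 members tested, and the lowest was WT replicate 1 for 16 and WT replicate 2 for 13. All dnTCF4 libraries stood above WT replicates 1 and 2 for 10 of 11 protein genes, 2 of 2 ribosomal RNAs and 14 of 16 transfer RNAs. WT replicate 3 exceeded at least 1 dnTCF4 library for 4 of 11 protein genes, 1 of 2 ribosomal RNAs and 10 of 16 transfer RNAs. Libraries of the same number, taken as pairs, had median log2 ratios for the protein genes of 0.42, 0.68 and 0.90 in pairs 1, 2 and 3. For the transfer RNAs these were 1.25, 1.38 and 0.33.

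Markers of mature neutrophils, which the sort should remove, were highest within each genotype in replicate 3, as were those of erythroblasts, monocytes and macrophages. Of 11 genes in the neutrophil list, 10 averaged at least 1 RPKM and none was at 0 in all libraries. Of the 10, 9 had a higher mean in dnTCF4 cells and Cxcr2 a lower one. The summed level of the 11 was 3078, 3730 and 7611 RPKM in dnTCF4 replicates 1, 2 and 3, against 621.5, 755.0 and 3128 in WT replicates 1, 2 and 3. The highest dnTCF4 and the highest WT library were those with the highest mitochondrial share. Erythroblast markers, with 4 of 9 genes at 1 RPKM or more, summed to 51.6 to 93.5 RPKM in dnTCF4 libraries and 17.7 to 29.3 in WT libraries. Megakaryocyte markers, with 5 of 7 genes, summed to 131.8 to 166.3 RPKM in dnTCF4 libraries and 53.1 to 75.5 in WT libraries. Most of this sum was Pf4, at 131.3 RPKM in dnTCF4 cells and 51.5 in WT cells. Pf4 and Gp9 were separated, and Gp1ba, Itga2b and Ppbp overlapped. Monocyte and macrophage markers, with 5 of 7 genes, overlapped in sum. They had 187.9 to 265.7 RPKM in dnTCF4 libraries and 218.5 to 294.4 in WT libraries. Most of this sum was Ly6c2, at 179.4 RPKM in dnTCF4 cells and 227.6 in WT cells. Ly6c2, Csf1r and Cx3cr1 overlapped between the genotypes. Adgre1 and Ccr2 were higher in dnTCF4 cells without overlap (limma adjusted p = 0.135 and 0.584). B cell markers overlapped too, at 98.3 to 134.8 RPKM in dnTCF4 libraries and 118.4 to 196.5 in WT libraries. T and NK cell markers summed to 748.2 to 1168 RPKM in dnTCF4 libraries and 993.3 to 1229 in WT libraries, with overlap. Of 8 genes, 3 averaged at least 1 RPKM, and nearly all of the sum was Nkg7, at 992.8 RPKM in dnTCF4 cells and 1091 in WT cells. Nkg7 and Trac overlapped. Klrb1c was higher without overlap, at 2.71 RPKM in dnTCF4 cells and 1.78 in WT cells (limma adjusted p = 0.410). Plasma cell markers, with 8 of 9 genes at 1 RPKM or more, summed to less in each dnTCF4 library, at 4974 to 11516 RPKM in dnTCF4 libraries and 50583 to 95500 in WT libraries. Most of this sum came from the immunoglobulin genes Igkc and Ighm. They averaged 51205 and 11319 RPKM in WT cells and 6697 and 1910 in dnTCF4 cells. The sum thus largely repeats the immunoglobulin share. Of the 8 genes, 7 were lower without overlap, and Sdc1 overlapped. The part of any of these cell types in the mitochondrial values was not tested. The bars of the plot of shares set the mitochondrial reads, the immunoglobulin reads and the neutrophil markers of each library side by side. Malat1, an RNA kept in the nucleus, averaged 339.4 ± 66.7 RPKM in dnTCF4 cells and 304.4 ± 56.7 in WT cells (SD, n = 3 each).

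**Figure D5:**
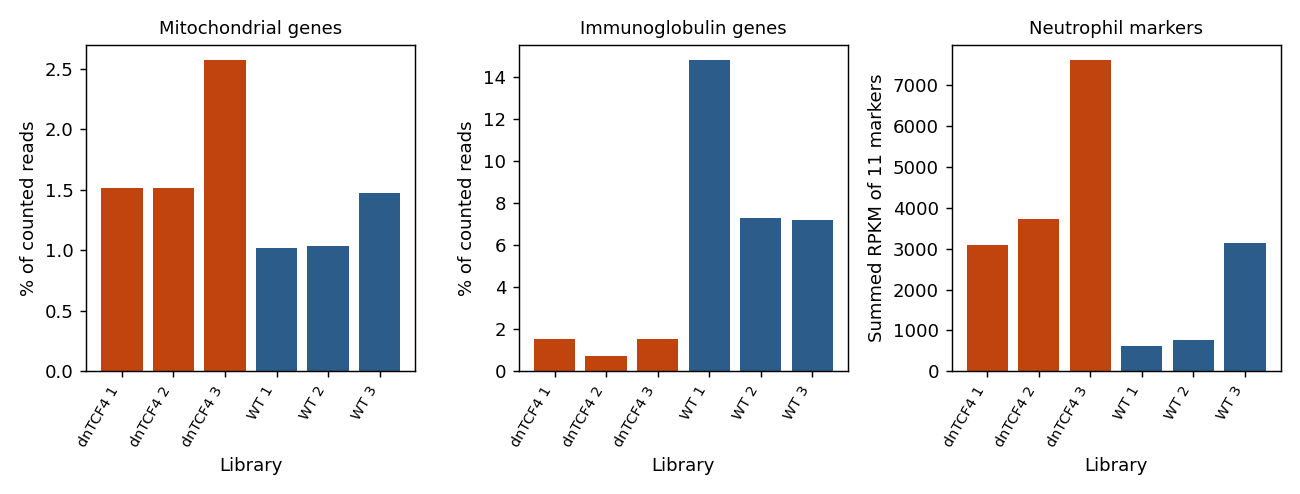
Bars per library, dnTCF4 left of WT, of the percentage of counted reads on mitochondrial genes, the percentage on immunoglobulin genes, and the summed RPKM of 11 neutrophil markers. Mitochondrial genes take 1.51% to 2.57% in dnTCF4 libraries and 1.02% to 1.47% in WT libraries, and dnTCF4 replicate 3 and WT replicate 3 have the highest neutrophil sums of their genotypes, 7611 and 3128 RPKM.

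Nuclear genes that serve the mitochondrial genome were read from 7 lists, and none passed the test. Of 162 genes tested, 105 (64.8%) had a higher mean in dnTCF4 cells, beside 68.5% of all genes. In limma 0 were called, and 1 (0.617%) had an unadjusted p under 0.05, higher in dnTCF4 cells, beside 7.52% of all genes. Median log2 differences of the lists lay between -0.06 and 0.17, beside 0.14 for all genes. After scaling by median ratios, 49 of the 162 (30.2%) had a higher mean in dnTCF4 cells, beside 43.7% of all genes, and the list medians lay between -0.25 and -0.03, beside -0.04 for all genes.

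In the list for transcription and DNA maintenance, 12 of 17 genes had a higher mean in dnTCF4 cells. Tfam, which packages mitochondrial DNA and starts its transcription, averaged 6.17 ± 0.904 RPKM in dnTCF4 cells and 4.80 ± 0.426 in WT cells (limma adjusted p = 0.632). Mterf2, a member of the transcription termination factor family, averaged 15.6 ± 1.14 RPKM in dnTCF4 cells and 11.5 ± 1.96 in WT cells (limma adjusted p = 0.541). Both had separated groups without passing the test. Among the genes of RNA processing and decay, 15 of 25 had a higher mean, and Hsd17b10, a subunit of the enzyme that cuts the 5′ ends of mitochondrial transfer RNAs, averaged 240.4 ± 36.8 RPKM in dnTCF4 cells and 200.7 ± 6.53 in WT cells.

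Of the aminoacyl-tRNA synthetases, which load transfer RNAs, 8 of 15 had a higher mean. Lars2, for leucine, averaged 1175 ± 292 RPKM in dnTCF4 cells and 795.3 ± 131.5 in WT cells (limma adjusted p = 0.525), and Tars2, for threonine, averaged 16.5 ± 9.29 RPKM in dnTCF4 cells and 25.0 ± 6.31 in WT cells (limma adjusted p = 0.664). Of the proteins of the mitochondrial ribosome, 52 of 75 had a higher mean, and Mrps36, named for the ribosome but known as a subunit of the alpha-ketoglutarate dehydrogenase complex, was the 1 gene with an unadjusted p under 0.05, at 41.3 ± 1.99 RPKM in dnTCF4 cells and 31.5 ± 2.59 in WT cells (limma adjusted p = 0.516). Translation factors had 9 of 12 higher means, with Mtrf1, a release factor family member, at 22.1 ± 2.40 RPKM in dnTCF4 cells and 18.0 ± 1.00 in WT cells (limma adjusted p = 0.641). Of the genes of the mitochondrial stress response, 7 of 12 had a lower mean in dnTCF4 cells and 41.7% a higher one, beside 68.5% of all genes higher. After scaling by median ratios 11 of 12 were lower and 8.33% higher, beside 43.7% of all genes higher. One of these 11, Psat1, had a log2 difference of only -3.96e-05. None of the 12 had an unadjusted p under 0.05 in limma. Among the 7 lower before scaling, and chosen after their values were seen, Phgdh, the first enzyme of serine synthesis, averaged 115.4 ± 69.0 RPKM in dnTCF4 cells and 183.1 ± 88.3 in WT cells (limma adjusted p = 0.691). It had 170.3, 138.1 and 37.95 RPKM in the dnTCF4 libraries and 120.1, 284.0 and 145.2 in the WT libraries, in replicate order. Shmt2, a mitochondrial enzyme of serine and glycine metabolism, averaged 19.1 ± 8.62 RPKM in dnTCF4 cells and 28.6 ± 15.6 in WT cells (limma adjusted p = 0.713). It had 23.6, 24.5 and 9.16 RPKM in the dnTCF4 libraries and 16.7, 46.2 and 22.9 in the WT libraries, in replicate order. Both genes overlapped between the genotypes, and dnTCF4 replicate 3 and WT replicate 2 stood away from the rest. Atf4, the transcription factor of this response, averaged 16.97 ± 1.71 RPKM in dnTCF4 cells and 12.9 ± 2.05 in WT cells (limma adjusted p = 0.585). Regulators of mitochondrial biogenesis had 4 of 6 higher means, and Gabpa, a factor that acts on promoters of respiratory genes, averaged 8.59 ± 2.10 RPKM in dnTCF4 cells and 6.92 ± 0.475 in WT cells (SD, n = 3 each).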

How the data were processed

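Sorted cells were turned into libraries with a SMART-Seq v4 complementary DNA kit and a Nextera XT kit, per the labels' protocols. The authors deposited 1 table of RPKM values with 1 column for each of 6 libraries. STAR, featureCounts, DESeq2, edgeR, mm10 and GRCm38 are named in the submitters' processing notes. The sources used here give neither their versions and roles nor the annotation, or how reads with several matches were treated. Reads were recovered as RPKM times the union exon length in GENCODE M21, and 96.3% to 96.6% of the values under 60 reads were whole within 0.02 of a read.

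Genes averaging 1 RPKM or more across the libraries were transformed to log2(RPKM + 1) and fitted in limma 3.58.1 (R 4.3.3) with genotype as the single term, eBayes with a trend, and two-sided tests. The p-values were adjusted by Benjamini-Hochberg over all 11326 genes tested, and a gene was called at an adjusted p under 0.05. Differences on this scale understate the change of low genes. Values that exist once per library were compared by exact two-sided permutation. Nuclear copies were found with BLAST 2.17.0 among GENCODE transcripts, at 95% identity or more over more than 50% of the copy. Every member is described, and at most 4 genes with the lowest unadjusted p were eligible to be named from each nuclear list. The members, lists and tests were chosen with earlier results of these data known.

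Libraries with the same replicate number deviated together: the correlations of their deviations from the group means were 0.172, 0.354 and 0.303 over 11326 genes, each above 0.1. Between libraries of unlike number they lay between -0.329 and 0.0908. Deviations from a group mean sum to 0, so some matching of the libraries gives positive values in any case, and these correlations cannot establish a pairing. The numbers were taken to pair the libraries in the block and the paired test only. This pairing was read from the data, and the labels give no shared litter, batch or day.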

Additional observations from a re-analysis of the deposited data

How the results depend on the processing

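The direction of the median log2 difference of the protein genes (0.67) held under every alternative run, between 0.41 (without dnTCF4 replicate 3) and 0.84 (without WT replicate 3), and the mitochondrial share stayed higher in dnTCF4 cells. The number of members called in limma was 0 in the reported fit, 1 with the replicate block, which pairs libraries of the same number, 2 after quantile normalization and 2 with median ratio scaling and the replicate block together. The block changed no other call among the members. Single directions turned for mt-Tl2 with library weights (-0.0617) and for 3 transfer RNAs when 1 library was left out. Leaving out 1 library at a time gave mt-Tl2 values of -0.50 to 0.87, mt-Ti values of -0.00121 to 0.83 and mt-Tw values of -0.12 to 0.54. Over the whole table, 34 genes were called. This number was 6 with no filter, 14 with voom on recovered reads, 86 with library weights, 18 with replicates 1 and 2 only, 127 with median ratio scaling and the replicate block, and 7 to 34 without 1 library (22, 16 and 11 without dnTCF4 replicates 1, 2 and 3, and 7, 34 and 18 without WT replicates 1, 2 and 3). With the immunoglobulin genes left out it was 0 in limma, with 648 genes at an unadjusted p under 0.05. The cause was not tested. Replicates 1 and 2 only, scaling together with the block, and the paired test of the mitochondrial share were chosen after seeing the data. With 3 libraries a group, exact tests cannot go below p = 0.1, and rows of a few reads are limited by counting error.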

Other observations

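Nuclear copies of mitochondrial genes on other chromosomes had low values in the table. The 4 found, Gm13339, Gm13340 and Gm13341 on chromosome 2 and Gm4076 on chromosome 13, had 0 to 1.32 RPKM over the 6 libraries. They matched mt-Nd2, mt-Co1, mt-Co2 and mt-Nd5, in that order, at 95.2% to 97.6% identity. How reads shared with those genes were counted is not known. The ratio of the ribosomal RNAs, mt-Rnr1 to mt-Rnr2, was 0.141, 0.164 and 0.171 in dnTCF4 replicates 1, 2 and 3 and 0.108, 0.114 and 0.158 in WT replicates 1, 2 and 3, with overlap (exact two-sided permutation p = 0.2). The ratio of Gm28438 to mt-Cytb was 0.0141, 0.0149 and 0.0219 in dnTCF4 replicates 1, 2 and 3 and 0.0138, 0.00737 and 0.0112 in WT replicates 1, 2 and 3, without overlap (exact two-sided permutation p = 0.1, the smallest possible). Both ratios were chosen after the values were seen.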
